A study of Mus musculus with 21 samples.

Results

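Cerebellar granule cells cultured from Cstb-/- mice had higher transcript levels than control cultures for most of the mitotic genes examined, for many DNA replication genes and for some genes of collagens, matrix glycoproteins and contractile proteins, while a small group of interferon-inducible genes was lower. Of the 505 genes that changed, 187 lay in the 40 gene lists used here. These cultures make up 7 of the 21 arrays of the series and were chosen by their labels as granule cell samples, 3 of them Cstb-/- (knockout arrays 1, 2 and 3) and 4 wild type (control arrays 4, 5, 7 and 8). The study profiled gene expression in a mouse model of Unverricht-Lundborg progressive myoclonus epilepsy, EPM1, on Affymetrix mouse genome arrays, and its other arrays hold whole cerebella of P7 and P30 mice. Both genotypes were on the 129SvJ background, the knockout lacks Cstb in all cells, and wild type littermates served as controls. Cells came from cerebella of P5 pups whose meninges had been taken off, were dissociated with trypsin, grown in serum-containing medium for 2 days in vitro and given 10 µM AraC, a nucleoside that kills cells in S phase, 16 to 20 h after plating against glial growth, in both genotypes alike. A culture is a mixed population, and nothing in the labels says whether arrays came from separate litters or separate dissections, so p-values measure the spread between these arrays, which may be partly technical. In such bulk RNA more cells of a type and more RNA per cell cannot be told apart.

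Cystatin B is a small inhibitor of cysteine proteases that binds cathepsins, among them cathepsin L, in the cytosol and nucleus, and its loss causes EPM1. Granule cells are the most numerous neurons of the cerebellum. Their precursors divide in the external granule layer of the young cerebellum under the mitogen Sonic hedgehog, then leave the cell cycle, express neuronal genes and migrate inwards, and in culture most of them stop dividing and grow neurites. Cells that keep dividing at this age include remaining precursors, glia and the fibroblasts of the meninges.

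The deposited values are log2 signals centred on every probe set's own median across the culture arrays, so they hold differences between arrays but no level, and the presence or absence of a cell type's markers cannot be read from them. Array values of genes and gene lists below are log2 values from which the mean of the 4 control arrays was taken, listed in the order of the array numbers. Cstb, the targeted gene, followed the labels. It read -2.03, -2.22 and -2.0 in the knockout arrays and 0.10, 0.03, -0.14 and 0.01 in the control arrays, with no overlap (log2 difference -2.08, SE 0.09, adjusted p = 2.86e-05, a 4.23-fold lower value), and its second probe set gave a log2 difference of -1.86. Over all probe sets knockout arrays 1 and 3 were alike (Pearson r = 0.70) and knockout array 2 stood further off (r = 0.37 and 0.44 with them), while control array 4 shared no pattern with the other controls (r between -0.08 and 0.01, against 0.39 to 0.42 among the rest). On the deposited scale the mean of the 18S rRNA control probe sets was -1.07 in knockout array 1, lay between -0.33 and 0.04 in the other knockout arrays and between -0.20 and 0.49 in the controls. Sex-specific transcripts went against the labels of knockout array 1 (labelled male, Xist 1.4, Eif2s3y -2.43) and knockout array 2 (labelled female, Xist -5.49, Eif2s3y 1.68), and control arrays 7 and 8 held signal of both genes (Xist 1.17 and 1.72, Eif2s3y 0.83 and -0.10). The part of these differences in the results below was not tested beyond the values given without single arrays and with sex in the model.

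Of 45037 probe sets, 1144 (2.54%) changed between genotypes by at least 1.3-fold at an adjusted p below 0.01 in limma, 933 (2.07%) higher and 211 (0.469%) lower in Cstb-/- cultures. With 1 representative probe set per gene, 505 of 18193 genes changed (2.78%), 488 higher (2.68%) and 17 lower (0.0934%). Counting any changed probe set, 566 changed genes had several probe sets, and in 336 of these all went in the called direction. The median log2 difference over all genes was 0.001 and 50.1% of genes had the higher value in the knockout, a balance that normalized and median-centred values tend to have. Past the fold of 1.3 at any p, 5445 probe sets were higher and 2850 lower. All 1144 changed probe sets had arrays of the genotypes that did not overlap. The size of the changed set depended on single arrays. It was 2685 without knockout array 2, 371 without knockout array 1, 320 without knockout array 3, 454 without control array 5, 343 without control array 7 and 302 without control array 8, and 237 of the 1144 (214 higher, 23 lower) were called in all 7 fits with 1 array left out. It also depended on the model and was 32 by the methods' t-test over all probe sets, 670 with the sex gene signal as a covariate, 2082 without probe sets that hold tied values, 2828 with array weights and 5725 in 1 fit over all 6 groups. The 187 changed genes of the lists were 176 higher and 11 lower ones. The lists and the genes named were chosen with results of these data known.

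**Figure D1:**
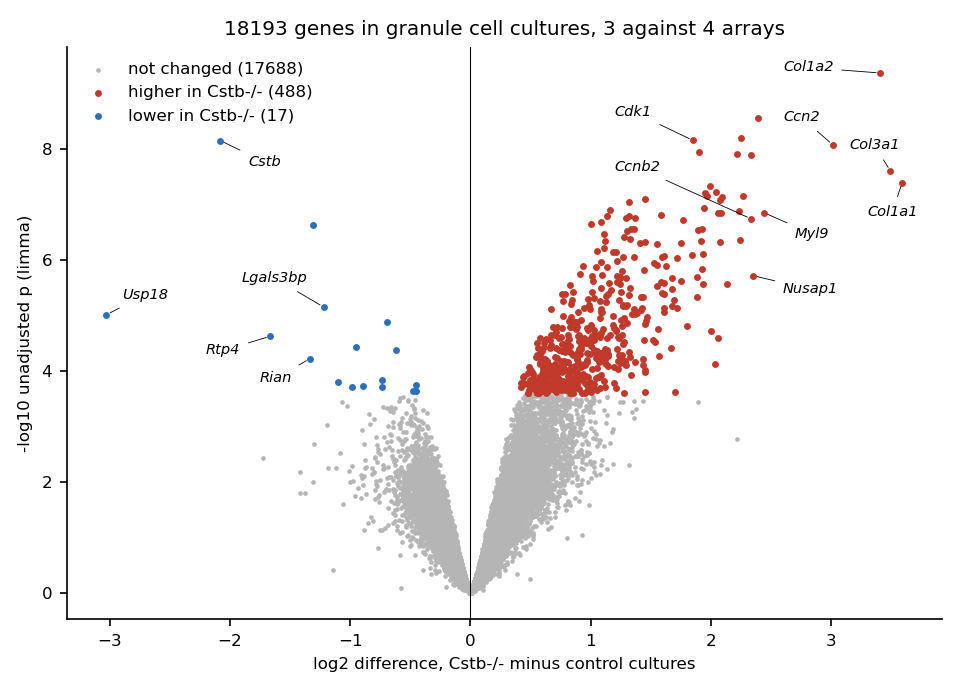
Log2 difference between Cstb-/- and control cultures (x axis) against the -log10 unadjusted limma p (y axis), 1 point per gene for 18193 genes. The 488 higher genes (red) reach a log2 difference of 3.59 at Col1a1 and the 17 lower genes (blue) reach -3.03 at Usp18, with Cstb at -2.08.

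Mitotic genes rose in Cstb-/- cultures, and no other of the 40 lists held as many changed members. Of 77 measured members of the mitosis list, 54 rose, where 2.68% of all genes did, and none fell. The median log2 difference was 1.10 against 0.001 over all genes, and 69 had the higher value in the knockout. In 63 members all knockout arrays lay above all control arrays, against 16.4% of all genes. The count moved with single arrays and was 30 without knockout array 3, the lowest. The mean over the list was 1.06, 1.04 and 1.13 in the knockout arrays and 0.05, -0.13, 0.00 and 0.08 in the control arrays, and the 3 knockout arrays were alike.

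Many mitotic genes share a promoter element, the cell cycle genes homology region (CHR, TTTGAA), which recruits the MuvB complexes that repress these genes in resting cells and activate them in dividing ones. The promoters from the list are shown because their genes rose in the knockout and the element lies near the start site. They are RefSeq promoters of the GRCm38.p6 reference, which is not the 129SvJ strain of the mice, and run from 250 bases before to 50 bases after the start. Capitals mark each TTTGAA, counted from the start site as position 0. The element stands at positions -167 and 4 for Ccnb2 (chr9:70421505-70421804, minus strand), at -18 for Cdc20 (chr4:118437294-118437593, minus strand), at -71 and -15 for Cdk1 (chr10:69352863-69353162, minus strand) and at 2 for Cenpf (chr1:189688037-189688336, minus strand).
Ccnb2: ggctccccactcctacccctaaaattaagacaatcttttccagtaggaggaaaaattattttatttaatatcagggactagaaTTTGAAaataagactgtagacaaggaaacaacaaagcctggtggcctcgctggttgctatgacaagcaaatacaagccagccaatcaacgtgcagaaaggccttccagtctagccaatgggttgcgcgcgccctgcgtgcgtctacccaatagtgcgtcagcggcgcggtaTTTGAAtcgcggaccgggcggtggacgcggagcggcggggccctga
Cdc20: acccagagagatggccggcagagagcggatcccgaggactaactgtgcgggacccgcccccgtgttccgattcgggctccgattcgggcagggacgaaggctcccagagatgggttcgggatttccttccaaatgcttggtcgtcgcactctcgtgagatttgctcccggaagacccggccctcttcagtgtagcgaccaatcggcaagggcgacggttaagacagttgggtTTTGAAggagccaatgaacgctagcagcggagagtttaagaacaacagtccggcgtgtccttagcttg
Cdk1: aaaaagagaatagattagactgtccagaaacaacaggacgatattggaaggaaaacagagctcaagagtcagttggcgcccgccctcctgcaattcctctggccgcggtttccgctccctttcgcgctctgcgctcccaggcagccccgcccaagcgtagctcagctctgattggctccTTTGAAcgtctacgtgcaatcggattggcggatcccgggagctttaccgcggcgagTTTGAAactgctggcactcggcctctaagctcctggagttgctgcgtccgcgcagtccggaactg
Cenpf: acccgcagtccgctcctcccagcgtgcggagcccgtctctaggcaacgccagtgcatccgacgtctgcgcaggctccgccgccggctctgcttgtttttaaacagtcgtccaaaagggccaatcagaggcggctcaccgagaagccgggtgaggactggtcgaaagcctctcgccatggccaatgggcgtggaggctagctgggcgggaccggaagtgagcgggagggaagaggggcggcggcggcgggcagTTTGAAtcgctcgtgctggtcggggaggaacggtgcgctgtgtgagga
Searched on both strands and without regard to other motifs, TTTGAA was present in 43 of the 65 mitosis promoters found in the table (66.2%), in 7 of 40 DNA replication promoters (17.5%) and in 15.7% of the 14452 promoters of genes on the array. Of all 32851 promoters of this length 17.9% held it. From 50 bases before the start onwards it was in 37 mitosis promoters (56.9%), 3 replication promoters (7.5%) and 4.09% of those of all genes on the array. CCAAT, the letters read by the factor NF-Y, stood in 73.8% of mitosis and 62.5% of replication promoters against 42.0% for genes on the array. The promoters of Nusap1, Bub1 and Cks2 held no TTTGAA in this window, and their genes rose as well. Among the changed mitosis genes 28 of 46 promoters (60.9%) held TTTGAA, no more than in the whole list. The share of TTTGAA therefore describes the list and not the change.

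The kinase that starts mitosis and its partners led this group. Cdk1, the mitotic kinase, read 1.77, 1.84 and 1.95 in the knockout arrays and 0.05, -0.12, 0.05 and 0.03 in the control arrays. All 3 knockout arrays were far above the controls (3.61-fold, log2 difference 1.85, SE 0.08, adjusted p = 2.86e-05). Ccnb2, a B-type cyclin that binds Cdk1, read 2.40, 2.16 and 2.44 in the knockout arrays and 0.24, -0.33, -0.11 and 0.20 in the control arrays (5.05-fold, log2 difference 2.34, SE 0.15, adjusted p = 0.000135). Cdc20, the activator of the anaphase-promoting complex, read 1.43, 1.50 and 1.84 in the knockout arrays and 0.25, -0.26, -0.14 and 0.15 in the control arrays (3.01-fold, log2 difference 1.59, SE 0.15, adjusted p = 0.000911). In both genes the groups were well apart. Of the 25 cyclins, kinases and checkpoint genes 17 rose, where 2.68% of all genes did. Among them were the Cdk1 subunit Cks2 (log2 difference 2.09), cyclin A2 (1.63), the kinases Aurkb (1.76), Plk1 (1.46) and Aurka (1.36), and Bub1, a kinase of the spindle checkpoint (2.07). A second probe set of Bub1 gave 0.09.

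Genes for the structures that carry chromosomes rose with them, and the counts here are read against 2.68% of all genes that rose. Of 18 centromere and kinetochore genes 15 rose, with Cenpf, a kinetochore protein of G2 and M phase, at 2.13 and Cdca8 and Birc5 of the chromosomal passenger complex at 1.61 and 1.94. Nusap1, which bundles spindle microtubules, read 2.45, 2.06 and 2.53 in the knockout arrays and 0.43, -0.42, -0.16 and 0.14 in the control arrays and was the most raised gene of the list (5.09-fold, log2 difference 2.35, SE 0.20, adjusted p = 0.000609). Spindle and cytokinesis genes rose in 11 of 14 cases, including Cep55 (2.05) and Racgap1 (2.06), which act in the final cut between daughter cells, and the spindle protein Tacc3 (2.03). Of 12 mitotic kinesins 6 rose. Kif11, which pushes the spindle poles apart, had a log2 difference of 1.68 (SE 0.15, adjusted p = 0.00082), Kif20a of cytokinesis 1.97, the chromosome-bound Kif22 1.09 and Kif18b and Kif18a, which shorten microtubules, 1.12 and 0.58. Kif2c, a microtubule depolymerase, was -0.23 (adjusted p = 0.106) on its representative probe set, whereas 3 of its 4 probe sets rose, by up to 1.89. With single arrays left out, the call was lost for Racgap1 without knockout array 1 or 3 or control array 5, 7 or 8 (adjusted p up to 0.0171), Tacc3 without knockout array 1 or 3 or control array 4, 5, 7 or 8 (adjusted p up to 0.0294), Kif18b without knockout array 1 or 3 or control array 4, 5 or 7 (adjusted p up to 0.0297), and Kif18a without knockout array 1 or 3 or control array 7 or 8 (adjusted p up to 0.0172).

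Mki67, whose protein Ki-67 marks cycling cells, read 1.48, 1.44 and 1.42 in the knockout arrays and -0.04, -0.22, 0.31 and -0.06 in the control arrays (log2 difference 1.45, SE 0.12, adjusted p = 0.000532). It was among the 5 of 8 chromosome condensation and marker genes that rose, where 2.68% of all genes did. Top2a, the topoisomerase that untangles sister chromatids, stood at -0.32 on its representative probe set (adjusted p = 0.189), and 2 of its 3 probe sets rose, by up to 1.92.

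**Figure D2:**
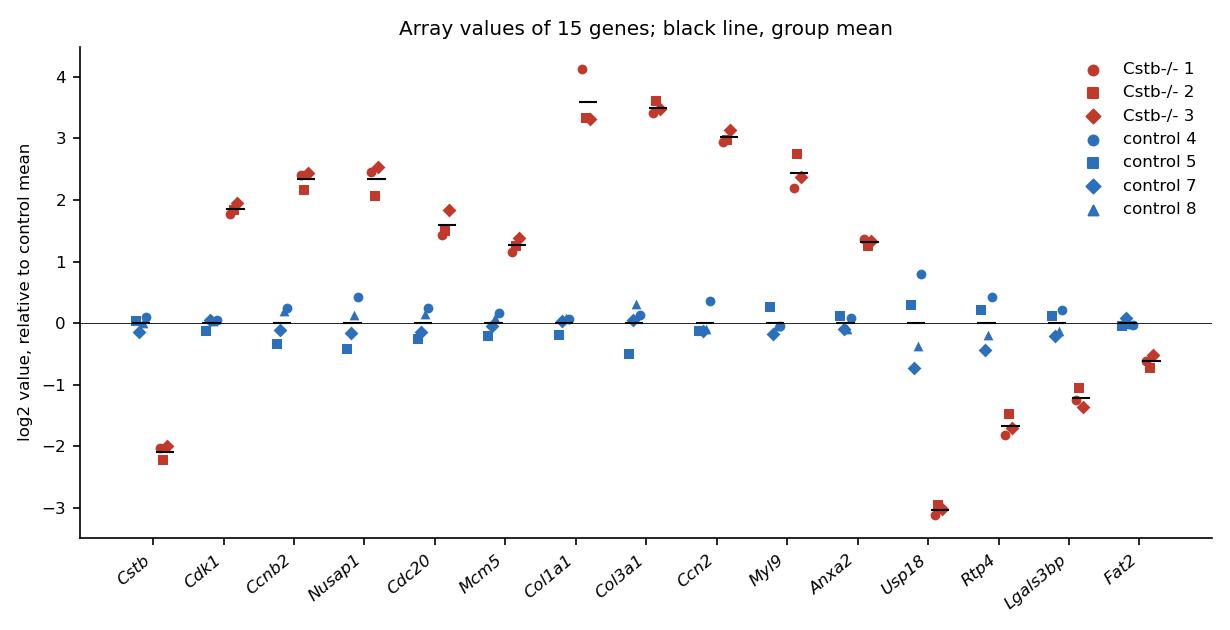
Log2 value with the control mean at 0 (y axis) of 15 genes in each of the 7 culture arrays, with group means as black lines. The knockout arrays (red) lie apart from the control arrays (blue) in every gene shown, for Cdk1 at 1.77 to 1.95 against -0.12 to 0.05 and for Fat2 at -0.72 to -0.51 against -0.05 to 0.09. Genes called changed nearly always lie apart in this way.

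DNA replication genes rose beside the mitotic ones. Of 48 measured, 21 rose, where 2.68% of all genes did, and none fell. The median was 0.69, and in 41 all knockout arrays were above all controls, against 16.4% of all genes. The count was 8 without knockout array 1, 5 without knockout array 3, and 11, 7 and 6 without control arrays 5, 7 and 8. Mcm5, a subunit of the replicative helicase, read 1.15, 1.26 and 1.38 in the knockout arrays and 0.16, -0.21, -0.05 and 0.09 in the control arrays (log2 difference 1.26, SE 0.11, adjusted p = 0.000535). Helicase and loading genes rose in 10 of 17 cases, with Gins1 of the helicase complex at 1.11 and Gmnn, the geminin that prevents a second round of licensing, at 1.61. Of 20 polymerase and clamp genes 6 rose, among them the clamp loader subunit Rfc4 (1.44) and the leading-strand polymerase Pole (0.77). The clamp itself, Pcna, was 0.60 (adjusted p = 0.0195). Of 11 genes for nucleotides and chromatin 5 rose, including the chromatin remodeller Hells (1.53) and Rrm2, the small subunit of ribonucleotide reductase (1.22). The lowest probe sets of Gins1 and Hells gave log2 differences of -0.04 and -0.11. Leaving out 1 array at a time ended the call for Gmnn without knockout array 1 or 3 (adjusted p up to 0.0107), Rfc4 without knockout array 1 or 3 or control array 5, 7 or 8 (adjusted p up to 0.0325), Hells without knockout array 1 or 3 or control array 7 or 8 (adjusted p up to 0.0222), and Rrm2 without knockout array 3 or control array 5, 7 or 8 (adjusted p up to 0.0218).

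In G1 control 4 of 26 genes rose, against 2.68% of all genes, the kinase Cdk4 (1.02), its partner cyclin D2 (0.83), the transcription factor E2f7 (1.08) and the inhibitor Cdkn2c (0.88), and none did when knockout array 1 or 3 was left out. The call was lost for Cdk4 and Ccnd2 without knockout array 1 or 3 or control array 4, 5, 7 or 8 (adjusted p up to 0.0474), E2f7 without knockout array 1 or 3 or control array 5 (adjusted p up to 0.0198), and Cdkn2c without knockout array 1, 2 or 3 or control array 4, 5, 7 or 8 (adjusted p up to 0.0439). Of 24 precursor and Hedgehog genes none changed on the representative probe set (median 0.18), where 2.78% of all genes did, and Gli2 and Gli3, which carry the Hedgehog signal, rose on another probe set (0.67 and 0.71) with the representative at 0.10 and -0.15. Atoh1, which defines granule cell precursors, read 0.10, 0.49 and 0.30 in the knockout arrays and 0.00, -0.14, 0.10 and 0.04 in the control arrays (adjusted p = 0.106), and Gli1, a direct Hedgehog target, read -0.11, -0.08 and -0.31 in the knockout arrays and -0.11, -0.01, 0.23 and -0.11 in the control arrays (adjusted p = 0.311). The precursor factors Barhl1, Zic1 and Pax6 had log2 differences of 0.50, 0.12 and 0.33 with adjusted p-values of 0.212, 0.487 and 0.107.

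The highest single changes were in fibrillar collagens. Col1a1 and Col1a2, the chains of type I collagen, and Col3a1 of type III were the genes with the greatest rise of all 18193. Col1a1 read 4.12, 3.33 and 3.32 in the knockout arrays and 0.06, -0.19, 0.04 and 0.08 in the control arrays (12.1-fold, log2 difference 3.59, SE 0.19, adjusted p = 6.43e-05). Col1a2 read 3.46, 3.33 and 3.44 in the knockout arrays and 0.19, -0.21, -0.06 and 0.08 in the control arrays (10.6-fold, log2 difference 3.41, SE 0.10, adjusted p = 1.91e-05). Col3a1 read 3.41, 3.60 and 3.47 in the knockout arrays and 0.13, -0.50, 0.05 and 0.31 in the control arrays (11.3-fold, log2 difference 3.49, SE 0.18, adjusted p = 5.86e-05). In all 3 the lowest knockout array was at least 3 log2 units above the highest control array. Of 34 collagen genes 11 rose, where 2.68% of all genes did, and none fell. Their median was 0.18, and 23 did not pass the test. Fibrillar collagens rose in 5 of 10 cases, those of basement membranes in 3 of 8 and the others in 3 of 16. Col5a2, which sets fibril diameter with type I, was at 2.08, Col4a2 and Col4a1 of basement membranes at 1.77 and 0.98, and Col6a3 of beaded filaments at 1.92. Between 8 and 11 collagens rose with any 1 array left out. Single arrays decided the call of Col4a1 without knockout array 1 or control array 7 or 8 (adjusted p up to 0.0148).

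Enzymes that mature collagen and the proteins that surround it rose in part, where 2.68% of all genes rose. Of 23 collagen processing genes 4 rose: Lox, which crosslinks fibrils (log2 difference 2.33, SE 0.11, adjusted p = 3.66e-05), Pcolce, which speeds removal of the propeptide (2.26), the chaperone Serpinh1 (1.42) and Crtap of the prolyl hydroxylase complex (0.91). Of 39 matrix glycoproteins 12 rose, with a median of 0.59. They included fibronectin Fn1 (1.41), the small proteoglycans Lum (1.94) and Bgn (1.59), the matricellular proteins Thbs1 (2.22) and Postn (1.68) and the basement membrane linker Nid2 (1.33). Thbs1 read 2.14, 2.20 and 2.31 in the knockout arrays and -0.02, -0.19, 0.01 and 0.20 in the control arrays, with no overlap. The matrix glycoprotein count was 8 without knockout array 3, and the collagen processing count 8 without knockout array 2.

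The YAP and TEAD list holds these factors, which read cell density and tension, with their regulators, targets and the CCN family. Of its 24 measured genes 5 rose (median 0.44), against 2.68% of all genes. The element GGAATG is bound by TEAD factors, and it stood in 11 of the 17 promoters of this list (64.7%) against 15.3% of genes on the array and 14.7% of all promoters of this length. The list includes known targets, so this share describes the list and not the change. Promoters of 2 genes that rose are shown with GGAATG or its complement CATTCC in capitals, at position -103 for Ccn1 (chr3:145649936-145650235, minus strand) and -63 for Vgll3 (chr16:65814939-65815238, plus strand), both on the reverse strand of the gene.
Ccn1: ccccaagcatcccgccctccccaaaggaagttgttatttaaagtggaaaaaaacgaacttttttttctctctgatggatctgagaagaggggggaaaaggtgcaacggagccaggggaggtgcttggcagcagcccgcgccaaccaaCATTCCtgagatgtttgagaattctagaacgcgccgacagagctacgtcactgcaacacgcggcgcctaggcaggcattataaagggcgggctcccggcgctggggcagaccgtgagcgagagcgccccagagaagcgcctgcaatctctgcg
Vgll3: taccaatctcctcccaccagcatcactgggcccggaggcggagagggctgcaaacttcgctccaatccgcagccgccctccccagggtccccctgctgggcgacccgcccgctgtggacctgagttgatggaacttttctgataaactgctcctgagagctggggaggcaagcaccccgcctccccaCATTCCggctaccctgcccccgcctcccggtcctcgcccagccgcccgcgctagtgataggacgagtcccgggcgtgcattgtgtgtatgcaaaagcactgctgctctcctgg
Ccn2, a secreted matricellular protein long known as CTGF, read 2.94, 2.97 and 3.13 in the knockout arrays and 0.36, -0.13, -0.13 and -0.10 in the control arrays, with control array 4 highest among the controls and still far below the knockout arrays (8.08-fold, log2 difference 3.01, SE 0.13, adjusted p = 3.13e-05). Its relative Ccn1 (CYR61) read 2.02, 1.74 and 1.93 in the knockout arrays and -0.08, 0.24, 0.10 and -0.26 in the control arrays (3.72-fold, log2 difference 1.89, SE 0.13, adjusted p = 0.00018). The third family member examined by name, Ccn4, did not pass the test on its representative probe set (log2 difference 0.77, SE 0.16, adjusted p = 0.0215) and rose on its other one (log2 difference 0.89, SE 0.09, adjusted p = 0.00119). Also higher were F3, the cell surface starter of clotting (1.88), the TEAD cofactor Vgll3 (1.27) and the receptor kinase Axl (0.96). Another probe set of Axl gave -0.03. With single arrays left out, the call was lost for Axl without knockout array 1, 2 or 3 or control array 5, 7 or 8 (adjusted p up to 0.0515).

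Actin-bound and contractile genes rose in 11 of 35 cases, against 2.68% of all genes, with a median of 0.52. They were 5 of 14 that mark smooth muscle and myofibroblasts and 6 of 21 of broader use. The CArG box, the site of serum response factor, is typical of this group and was found in 5 of 30 promoters of the list (16.7%) against 1.58% of genes on the array and 1.63% of all promoters. Capitals mark it at position -161 for Myl9 (chr2:156775214-156775513, plus strand) and -56 for Cnn2 (chr10:79988350-79988649, plus strand).
Myl9: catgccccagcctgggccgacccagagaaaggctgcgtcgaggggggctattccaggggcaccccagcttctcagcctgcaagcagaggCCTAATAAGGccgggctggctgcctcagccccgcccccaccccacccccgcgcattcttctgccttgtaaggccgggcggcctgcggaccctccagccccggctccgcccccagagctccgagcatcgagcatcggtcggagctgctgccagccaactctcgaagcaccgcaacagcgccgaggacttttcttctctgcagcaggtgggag
Cnn2: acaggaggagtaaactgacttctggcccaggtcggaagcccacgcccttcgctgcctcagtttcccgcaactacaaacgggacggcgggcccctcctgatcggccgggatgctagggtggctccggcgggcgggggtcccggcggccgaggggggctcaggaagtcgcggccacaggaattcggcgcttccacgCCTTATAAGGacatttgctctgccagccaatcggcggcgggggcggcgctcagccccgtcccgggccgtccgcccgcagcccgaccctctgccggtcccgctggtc
Myl9, the regulatory light chain of myosin, read 2.19, 2.75 and 2.38 in the knockout arrays and -0.04, 0.27, -0.18 and -0.04 in the control arrays (5.43-fold, log2 difference 2.44, SE 0.15, adjusted p = 0.000123). Tagln, a smooth muscle actin-binding protein, read 2.35, 2.53 and 2.30 in the knockout arrays and 0.02, 0.13, -0.13 and -0.01 in the control arrays (log2 difference 2.39, SE 0.09, adjusted p = 2.02e-05). Acta2, smooth muscle actin, read 2.14, 2.39 and 2.22 in the knockout arrays and 0.18, -0.06, -0.06 and -0.06 in the control arrays (log2 difference 2.25, SE 0.10, adjusted p = 2.86e-05). All 3 genes had knockout arrays above every control. Only 1 of the 3 Acta2 probe sets was called, and the lowest gave a log2 difference of -0.07. The other smooth muscle genes that rose were Tpm1 and Tpm2 (1.32 and 1.34). On the representative probe set Myh11, Des, Lmod1 and Mylk stood at -0.01, -0.01, -0.1 and 0.02. Cnn1, Actg2, Smtn and Cald1 lay between 0.53 and 0.64 without passing the test. Of the broader genes, Cnn2, a calponin, was at 1.90 and Vcl, the vinculin of focal adhesions, at 1.75. With any 1 array left out 9 to 13 genes of the list rose.

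Annexins, S100 proteins and protease inhibitors showed a mixed picture. The counts here are read against 2.68% of all genes that rose and 2.78% that changed. Of 8 annexins, which bind membranes when calcium rises, 4 changed, all higher, among them Anxa2 (log2 difference 1.32, SE 0.08, adjusted p = 0.000131) and Anxa5 (1.13). Only 1 of the 3 Anxa2 probe sets was called, and the lowest gave 0.05. Anxa1 was -0.27 (adjusted p = 0.133) on its representative probe set, while its other probe set rose by 2.61. Of the 9 genes for S100 proteins and their partner 3 rose, S100a6 the most (2.24), and the 7 calls of the annexin and S100 list came down to 4 without knockout array 3 or control array 5, 7 or 8. TIMPs and serpins, inhibitors of matrix and serine proteases, rose in 5 of 11 cases, including Timp3 (1.93), Serpinf1, which encodes PEDF (1.95), and Timp1 (1.12). None of 11 matrix proteases passed the test, though Mmp2 lay just outside it (0.48, adjusted p = 0.0104). Plat and Mmp14 were 0.67 and 0.75 (adjusted p = 0.0269 and 0.0644), while Mmp3, Mmp9 and Plau had the lower value (-0.12, -0.32 and -0.26). In the adhesion list 5 of 27 rose, with Emp1, a membrane protein of cell contacts, at 2.06 and galectin-1, Lgals1, at 1.58, and 3 rose without knockout array 3 or control array 5, 7 or 8. Another probe set of Emp1 gave -0.16. Of 37 TGF-beta and BMP genes 3 rose, the secreted Fstl1 (1.72) the most, and 1 rose without knockout array 1 or control array 4, 7 or 8.

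Some markers of the fibroblasts of the meninges rose in the same cultures as the matrix genes. Of 24 measured, 7 rose, against 2.68% of all genes, and none fell (median 0.43), and the list mean was 0.43, 0.48 and 0.43 in the knockout arrays and 0.00, 0.06, -0.03 and -0.03 in the control arrays. The 7 were Lum, the transcription factors Tbx18 (1.22) and Foxd1 (0.78), the receptor Pdgfra (0.84), Aldh1a2, which makes retinoic acid (1.03), Islr (0.87) and Nupr1 (1.07), and the count was 4 without knockout array 1 or 3 or control array 5, 7 or 8. Of the defining markers, Col1a1, Lum and Pdgfra rose, Foxc1 and Twist1 did not pass the test (0.34 and 0.56, adjusted p = 0.0645 and 0.0454), and Dcn was -0.28 (adjusted p = 0.136) on its representative probe set with another at 1.53. The part of these cells in the collagen, contractile and mitotic results was not tested. For comparison, none of 14 pericyte and vascular smooth muscle markers passed the test on the representative probe set (median 0.08). Rgs5, which defines pericytes, was 0.22 (adjusted p = 0.147). The smooth muscle genes Acta2, Tagln and Myl9, which rose, were counted in the contractile list and not among these 14. Pdgfrb was 0.37 (adjusted p = 0.0355) on its representative probe set, and 1 of its 2 probe sets rose, by 1.97. Leaving out 1 array at a time ended the call for Foxd1 and Pdgfra without knockout array 1, 2 or 3 or control array 4, 5, 7 or 8 (adjusted p up to 0.0419), and Islr without knockout array 1 or 3 or control array 5, 7 or 8 (adjusted p up to 0.0288).

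Of 20 astrocyte and Bergmann glia markers 3 rose (median 0.42), where 2.68% of all genes did: the gap junction protein Gja1 (1.67), the stem and glial cell factor Sox2 (1.33) and Aldh1l1 (0.76), and in this list control array 4 stood nearest to the knockout, with list means of 0.58, 0.34 and 0.44 in the knockout arrays and 0.22, -0.06, -0.11 and -0.05 in the control arrays. The 3 calls were lost without knockout array 1 or 3 or control array 5, 7 or 8 (adjusted p up to 0.0286), and 7 markers rose without knockout array 2. Gfap, Aqp4 and the glutamate transporter Slc1a3 had log2 differences of 0.10, 0.29 and 0.98 that did not pass the test (adjusted p = 0.832, 0.2 and 0.0706). In the oligodendrocyte lineage list 1 of 18 rose, Olig2 (1.00), with a median of -0.19. None of 28 microglia and macrophage, 15 endothelial, 12 Purkinje cell, 14 interneuron and 16 choroid plexus markers changed on the representative probe set, where 2.78% of all genes did, and their medians were -0.04, -0.13, 0.17, 0.12 and -0.07. Rora, a nuclear receptor of the Purkinje cell list, fell by 1.17 on 1 of its 9 probe sets (adjusted p = 0.00752), with the representative at 0.02. Aif1 of microglia was -0.21 (adjusted p = 0.291), Pecam1 of endothelium -0.30 (adjusted p = 0.0815) and Pcp2 of Purkinje cells 0.28 (adjusted p = 0.174). The call was lost for Olig2 without knockout array 1, 2 or 3 or control array 5, 7 or 8 (adjusted p up to 0.0342).

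**Figure D3:**
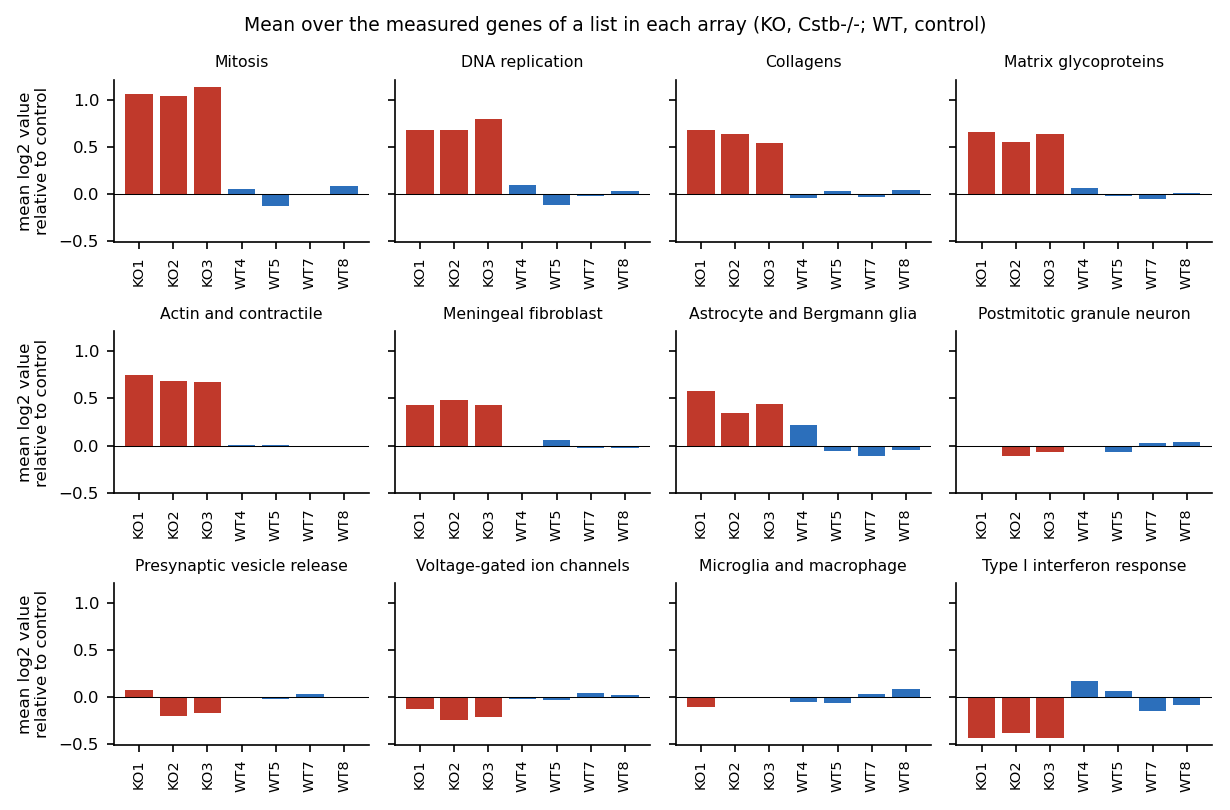
Mean log2 value relative to the control arrays (y axis, bars from 0) over the measured genes of 12 lists in each culture array, knockout in red and control in blue. The mitosis bars of the knockout arrays stand at 1.04 to 1.13 and those of the meningeal fibroblast list at 0.43 to 0.48, whereas postmitotic granule neuron bars stay within -0.11 and 0.04 in all arrays.

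Neuronal genes that passed the test were lower in the knockout. Of 33 postmitotic granule neuron genes 1 fell (median -0.04), and none of 25 glutamate receptor, 18 GABA signalling, 26 voltage-gated channel, 39 neuronal cytoskeleton and 45 axon guidance genes changed on the representative probe set, with medians between -0.18 and 0.09, where 2.68% of all genes rose and 0.0934% fell. On another probe set Mapt, the tau protein of microtubules, fell by 0.64 (adjusted p = 0.00534, representative -0.64 at adjusted p = 0.021), the AMPA receptor subunit Gria2 by 0.58 (adjusted p = 0.00516, representative -0.11), the sodium channel Scn8a by 0.47 (adjusted p = 0.00883, representative -0.11) and the transcription factor Nfib of the granule neuron list by 0.84 (adjusted p = 0.00609, representative -0.57). Neurod1, which drives granule cell differentiation, read 0.46, -0.15 and 0.04 in the knockout arrays and -0.05, -0.07, 0.07 and 0.04 in the control arrays (adjusted p = 0.566). Rbfox3, the neuronal antigen NeuN, was 0.32 (adjusted p = 0.27), the neuronal tubulin Tubb3 0.03 (adjusted p = 0.89), and the late markers Gabra6 and Cbln3 0.24 and -0.30 (adjusted p = 0.198 and 0.147). The gene that fell was Fat2, a giant protocadherin of granule cell parallel fibres, which read -0.62, -0.72 and -0.51 in the knockout arrays and -0.03, -0.05, 0.09 and -0.02 in the control arrays (1.53-fold lower, log2 difference -0.62, SE 0.08, adjusted p = 0.00382). Of 26 presynaptic genes 2 fell, the vesicle GTPase Rab3a (log2 difference -0.45, SE 0.07, adjusted p = 0.00945) and the vesicle glycoprotein Sv2b (log2 difference -0.47, SE 0.08, adjusted p = 0.00939). Single arrays decided the call of Fat2 without knockout array 1 or 3 or control array 5, 7 or 8 (adjusted p up to 0.0202), Rab3a without knockout array 1 or 3 or control array 4, 5, 7 or 8 (adjusted p up to 0.0414), and Sv2b without knockout array 1, 2 or 3 or control array 4, 5, 7 or 8 (adjusted p up to 0.0447). Voltage-gated channels had the lower value in the knockout in 23 of 26 cases (median -0.18, against 0.001 over all genes), and in 10 all knockout arrays were below all controls, against 7.15% of genes, with no member past the test on its representative probe set. Outside the lists, Nmnat2, an axon survival enzyme, also fell (log2 difference -0.69, SE 0.08, adjusted p = 0.00191). With single arrays left out, the call was lost for Nmnat2 without knockout array 1 or 3 or control array 8 (adjusted p up to 0.0122).

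Genes that type I interferon induces made up 6 of the 17 lower genes. Many of them carry the interferon-stimulated response element (ISRE, spelled GAAA, any 2 bases, GAAA) in their promoters. Of 55 measured genes 6 fell and 1 rose, where 0.0934% of all genes fell and 2.68% rose. Their median was -0.31, and 47 had the lower value in the knockout, while 9079 of all 18193 genes did. In 21 all knockout arrays were below all controls, against 7.15% of genes. The list mean was -0.43, -0.38 and -0.43 in the knockout arrays and 0.17, 0.06, -0.15 and -0.08 in the control arrays, so the knockout arrays were alike and control arrays 4 and 5 lay highest. At an adjusted p below 0.05, 16 fell. The call depended on single arrays, with 1 gene lower without knockout array 1, none without knockout array 3, and 2, 3 and 2 without control arrays 5, 7 and 8.

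Usp18, the protease that removes ISG15 from proteins and dampens the interferon receptor, read -3.12, -2.95 and -3.01 in the knockout arrays and 0.80, 0.30, -0.73 and -0.37 in the control arrays and was the gene with the greatest fall (8.15-fold lower, log2 difference -3.03, SE 0.32, adjusted p = 0.00157). The knockout arrays were close together while the controls were spread out, and the groups did not overlap. Rtp4, an interferon-induced chaperone, read -1.81, -1.48 and -1.70 in the knockout arrays and 0.42, 0.21, -0.43 and -0.20 in the control arrays (log2 difference -1.66, SE 0.20, adjusted p = 0.0027). Lgals3bp, a secreted glycoprotein, read -1.24, -1.06 and -1.36 in the knockout arrays and 0.22, 0.11, -0.21 and -0.12 in the control arrays (log2 difference -1.22, SE 0.12, adjusted p = 0.00129). The others were Ifi27l2a (-0.98), the ubiquitin ligase Trim30a (-0.95) and the RNA sensor Oas1b (-0.89), while Ifit2 rose (0.61). Irf9 and Irf7, which carry the signal to these genes, were -1.03 and -0.90 without passing the test (adjusted p = 0.013 and 0.0225). Leaving out 1 array at a time ended the call for Usp18 without knockout array 1 or 3 (adjusted p up to 0.0134), Rtp4 without knockout array 1 or 3 or control array 5 or 8 (adjusted p up to 0.02), Lgals3bp without knockout array 3 (adjusted p up to 0.0106), Ifi27l2a without knockout array 1, 2 or 3 or control array 4, 5, 7 or 8 (adjusted p up to 0.0447), Trim30a and Ifit2 without knockout array 1 or 3 or control array 5, 7 or 8 (adjusted p up to 0.0206), and Oas1b without knockout array 1 or 3 or control array 4, 5, 7 or 8 (adjusted p up to 0.0382). The element was found in 19 of 42 promoters of the list (45.2%) against 3.63% of genes on the array and 3.44% of all promoters. Of the 7 changed genes 3 had a promoter to search, and those of Usp18, Rtp4, Ifi27l2a and Oas1b were not available. Over all 17 lower genes, 9 had a promoter to search, and 2 of these (22.2%) held the element. Among the 3 promoters of changed genes of the list the element was in 1 (33.3%), too few to set against the share of the list. That promoter, of Trim30a (chr7:104465144-104465443, minus strand), is shown with the element, on the reverse strand at position -36, in capitals.
Trim30a: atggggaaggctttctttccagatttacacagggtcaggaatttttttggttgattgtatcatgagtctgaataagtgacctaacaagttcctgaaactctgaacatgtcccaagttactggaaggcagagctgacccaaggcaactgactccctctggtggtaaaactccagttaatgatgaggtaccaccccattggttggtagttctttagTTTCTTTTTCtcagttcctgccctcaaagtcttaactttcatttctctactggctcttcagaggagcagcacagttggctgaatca

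Groups that bear on protease control and stress are read against 2.78% of all genes that changed and 2.68% that rose. Of 21 cystatins and cathepsins, Cstb fell and the cathepsin Ctsh rose (log2 difference 0.80, SE 0.10, adjusted p = 0.00306). In the lysosome list 1 of 31 rose, the glucuronidase Gusb (1.19), and in the apoptosis list 1 of 31, the caspase Casp6 (0.81), with medians of 0.20 and 0.04, close to the share of all genes. Of 30 oxidative stress genes 5 rose, led by the glutathione peroxidases of the endoplasmic reticulum Gpx8 (1.57) and Gpx7 (1.14) and the metallothionein Mt1 (1.03), and the count was 1 without knockout array 1 or 3 or control array 8 and 2 without control array 5 or 7. Of 27 genes of the unfolded protein response 4 rose, all chaperones or folding factors such as Hspa5, the BiP chaperone (0.79), and Manf (0.88), and the count was 1 without control array 7 or 8, 2 without knockout array 1 or 3 and 8 without knockout array 2. Immediate early genes rose in 5 of 30 cases, with the growth factor response gene Egr1 at 1.99, Klf4 at 1.25 and Jun at 0.92, and the count was 2 without knockout array 1 or control array 8 and 3 without knockout array 3 or control array 5 or 7. The greater part of ribosomal protein genes had the higher value in the knockout (37 of 39, median 0.32), with 6 past the test, 1 without knockout array 1 or 3 or control array 5, 7 or 8 and 11 without knockout array 2, and so did genes of oxidative phosphorylation (42 of 49, median 0.21), with none past the test. The call of Gusb was lost without knockout array 1 or 3 or control array 5, 7 or 8, and that of Casp6 without any 1 array. The call was lost for Ctsh without knockout array 3 or control array 5, 7 or 8 (adjusted p up to 0.0207), Gpx8 and Jun without knockout array 1 or 3 or control array 5, 7 or 8 (adjusted p up to 0.0267), Mt1 without knockout array 1 or 3 or control array 5 or 8 (adjusted p up to 0.0148), and Manf without knockout array 1 or 3 or control array 7 or 8 (adjusted p up to 0.0145).

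**Figure D4:**
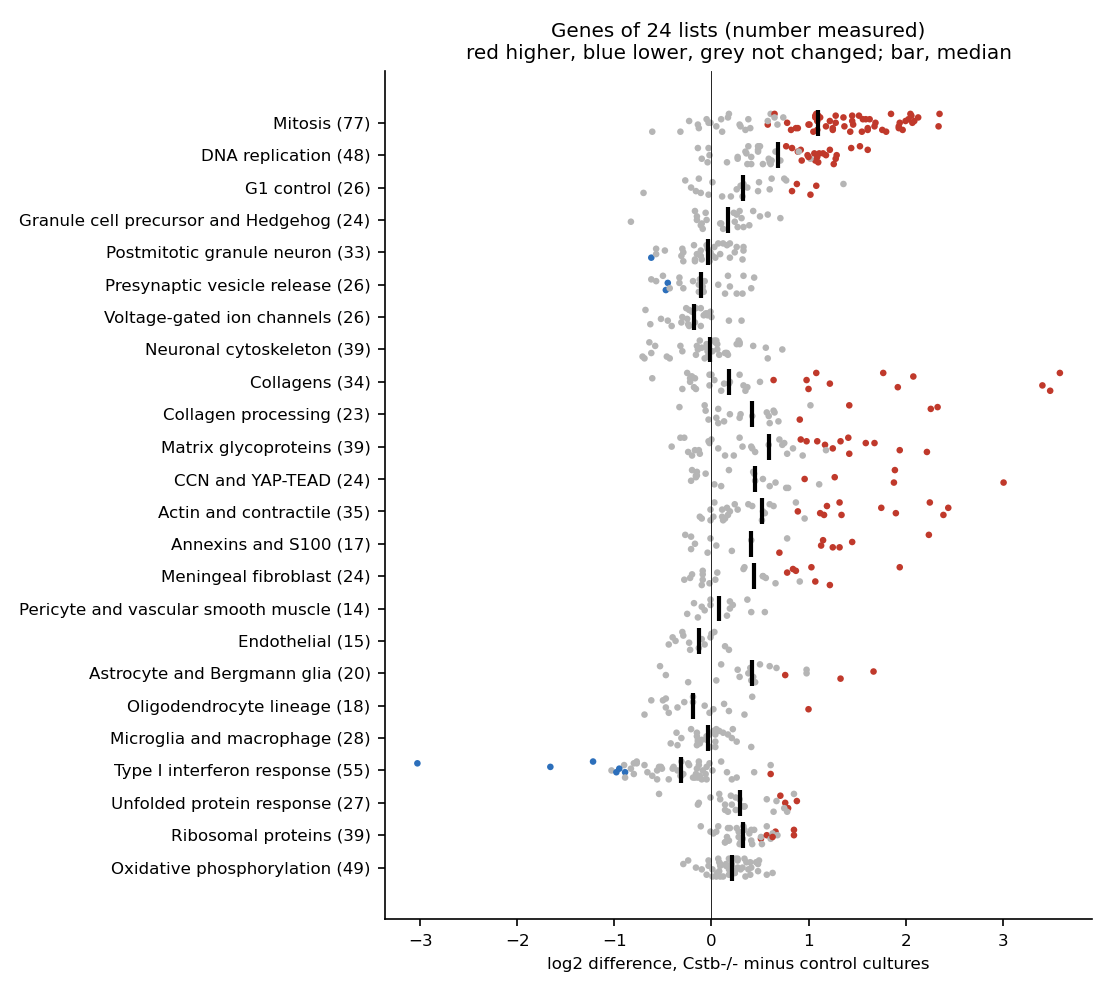
Log2 difference, Cstb-/- minus control cultures (x axis), of every measured gene of 24 lists, with red for higher, blue for lower and grey for not changed, and a bar at the median. The mitosis median lies at 1.10 and that of DNA replication at 0.69, the collagens run to 3.59 around a median of 0.18, and the interferon list runs to -3.03.

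Many of the probe sets that fell did not carry a single gene symbol. Of the 211 lower probe sets, 137 (64.9%) carry none or several, against 77 of the 933 higher ones (8.25%) and 22.4% of all. Several lower probe sets belong to genes whose representative probe set did not fall. For Cacna2d1, a calcium channel subunit, 1 of 5 probe sets had a log2 difference of -1.56 and the representative 0.31, and for Kcnq5, a potassium channel, 1 of 3 stood at -1.42 and the representative at 0.28. Rian, a noncoding RNA of the imprinted region on chromosome 12, fell on its representative (log2 difference -1.33, SE 0.18, adjusted p = 0.00454) and by 1.90 on a second probe set, and its neighbour Meg3 fell by 1.01 on 1 of 11 probe sets with the representative at 0.10. Of 29 imprinted genes measured Rian fell and 1 rose, where 0.0934% of all genes fell and 2.68% rose. The higher one was the growth factor receptor adaptor Grb10 (0.48), whose call was lost without any 1 array. Single arrays decided the call of Rian without knockout array 1 or control array 5, 7 or 8 (adjusted p up to 0.0251). C130075A20Rik fell in all fits with 1 array left out (log2 difference -1.31, SE 0.09, adjusted p = 0.000158).

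The same genotype difference was measured in whole cerebella of P7 mice, with 4 arrays per genotype and controls of their own, and the culture difference was set against it in 1 limma fit over 15 arrays. It was above the P7 difference for 1084 genes (5.96%) and below it for 87 (0.478%). Over probe sets it was above for 2209 (4.9%) and below for 457 (1.01%), together 2666, a count that was 5255 without knockout array 2, 1612 without knockout array 3 and 1659 without P7 control array 2. At P7, 3 of the 4 knockout arrays are labelled male and 3 of the 4 control arrays female, and Xist and Eif2s3y differed by -3.69 and 2.49 between the genotypes. With the labelled sex in the model 3638 probe sets were above P7 and 1226 below it, together 4864, and in 1 fit over all 6 groups 4082 differed. Sex-specific transcripts went against the labels of knockout arrays 1 and 2 of the cultures, so the labelled sex may not adjust for sex there. The median P7 difference over all genes was 0.015. Mitotic genes differed in 58 of 77 cases, all above P7. At P7 71 of the 77 had the lower value in the knockout, against 45.0% of all genes, and their median was -0.13. Cdk1 was -0.11 (SE 0.08) at P7 and 1.85 in culture, a difference of 1.97 (SE 0.12, adjusted p = 3.64e-08). Of 48 replication genes 31 were above P7. Col1a1 was -0.10 (SE 0.09) at P7, a difference of 3.70 from the cultures (adjusted p = 2.36e-08), and Usp18 was 0.13 (SE 0.08) at P7, a difference of -3.16 (adjusted p = 9.84e-06). The interferon list had a P7 median of 0.05, and 10 of its 55 genes were below P7. Fat2 went the other way at P7 (log2 difference 0.49, SE 0.08), as did Rab3a (0.31, SE 0.09), and both culture differences were below those at P7 (by -1.10 and -0.76, adjusted p = 9.08e-06 and 0.000602). The presynaptic list had a median of 0.19 at P7 and -0.11 in culture. At P7 3 probe sets changed between genotypes at an adjusted p below 0.05 (0.00666%), and choroid plexus markers had a P7 median of -0.82.

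**Figure D5:**
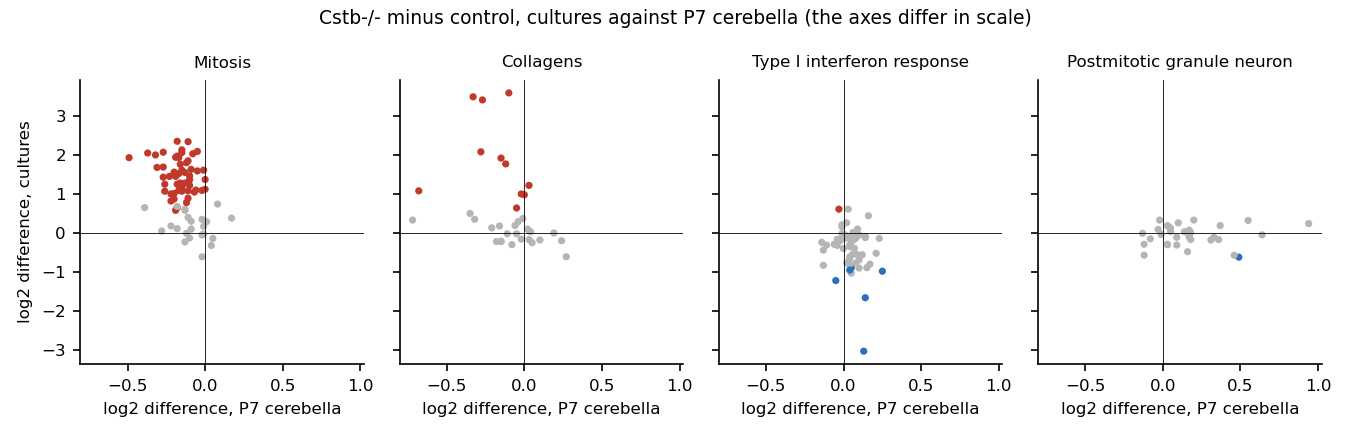
Log2 difference between genotypes in P7 cerebella (x axis) against that in cultures (y axis) for the genes of 4 lists, with the changed genes of the cultures in red (higher) and blue (lower). Mitosis genes lie up to 2.35 in culture around -0.13 at P7, collagens reach 3.59 in culture, and the granule neuron gene in blue is Fat2, at -0.62 in culture and 0.49 at P7.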

How the data were processed

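RNA of 7 granule cell cultures was measured on Affymetrix mouse genome arrays. The authors computed log2 expression with the RMA algorithm (background adjustment, quantile normalization, summarization), centred each probe set on its median over the arrays of an experiment and deposited these values, which therefore carry no level. In the cultures, 51.3% of probe sets hold tied values, 97.3% of them at 0. The sources used here give RMA without a version, and per the methods 1 Cstb-/- culture array was set aside and 5 per genotype were hybridized, of which 3 and 4 were analysed here.

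Groups came from the sample labels. After 64 control probe sets were left out, 45037 were fitted with limma 3.58.1 in R 4.3.3 (lmFit, eBayes, two-sided, Benjamini-Hochberg over all probe sets, 3 against 4 arrays), and changed means a fold of at least 1.3 at an adjusted p below 0.01, the methods' thresholds. A fold is 2 to the power of the log2 difference. A gene stands for the lowest-numbered probe set that carries its symbol alone in GEO's platform annotation (34945 probe sets with 1 symbol, 932 with several, 9160 with none, 18193 genes). Of 1266 list entries 1167 were measured. The fit was tested on simulated data. The P7 comparison used 4 group means over 15 arrays.

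The samples described, the 40 lists and the rule for naming genes were chosen with earlier results of these data known. The rule took the 10 largest rises and falls without overlap of arrays and up to 4 changed genes per list and role. It also took defining markers and genes named by the study for these cultures. Lists hold genes the study picked from these same arrays, so their counts are no independent evidence. Alternatives covered the test, eBayes settings, array weights, sex, thresholds, ties, the gene level, the samples in the fit and each array left out. The number of arrays limits the precision.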

Additional observations from a re-analysis of the deposited data

Results flagged for a closer look

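In 12 of the 181 genes given with values 1 control array lay apart from the other 3 by more than Dixon's critical value. Chance marks about 1 in 20 groups of untied normal values, and the count is near that rate. Tied or nearly tied values enlarge the gap as a share of the range, as for Acta2 (0.994) and Cacna2d1 (1.000), so the rate is only a rough guide here. Control array 5 was the low one for Cenpf (-0.55), Kif11 (-0.46), Col1a1 (-0.19), Ncapd2 (-0.14) and Cdk1 (-0.12), relative to the control mean on the log2 scale. Control array 4 was the high one for Ccn2 (0.36), Fstl1 (0.30) and Acta2 (0.18), and control array 8 stood apart for Ifit2 (-0.03). In these 9 genes, which all changed, the gap was smaller than the genotype difference of the same gene. Of the genes that did not pass the test, control array 5 was the low one for Cacna2d1 (-0.58) and Nfib (-0.46), and control array 8 stood apart for Gli3 (0.04).

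The genotype difference in cultures was set against that in P7 cerebella and differed for 2209 probe sets above P7 and 457 below it. Among them were Fat2, whose culture difference was below that at P7 by -1.10 (adjusted p = 9.08e-06), and Rab3a, by -0.76 (adjusted p = 0.000602), 2 neuronal genes that were lower in Cstb-/- cultures and had the higher value in Cstb-/- cerebella.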

How the results depend on the processing

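Of the 143 changed genes that the naming rule picked, 137 remained changed with robust eBayes, 143 with array weights, 130 with the labelled sex, 112 with the sex gene signal as a covariate, 142 in 1 fit over all 6 groups and 12 by the methods' t-test over all probe sets. They numbered 75 without knockout array 3 and 132 without knockout array 2, the lowest and highest when 1 array was left out. Sex-specific transcripts went against the labels of knockout arrays 1 and 2, so settings with the labelled sex may not adjust for sex. The count of changed probe sets, 1144 in all with 933 higher and 211 lower in Cstb-/- cultures, was 1061 with robust eBayes, 1256 with the labelled sex and the same with no fold threshold. It was 32 (28 higher, 4 lower) by the methods' t-test over all probe sets and 628 (527 higher, 101 lower) by that test over the probe sets past the fold. It was 2828 (2288 higher, 540 lower) with array weights, 670 (564 higher, 106 lower) with the sex gene signal, 5725 (4148 higher, 1577 lower) in 1 fit over all 6 groups and 2082 (1660 higher, 422 lower) without probe sets that hold tied values, and the cause of these moves was not tested. By construction it was 469 (409 higher, 60 lower) at a fold of 2 or more, 4075 (3078 higher, 997 lower) at an adjusted p below 0.05 and 603 (579 higher, 24 lower) with 1 probe set per gene, and 44 genes were lower when a gene's probe sets were averaged. With 1 array left out it ran from 302 without control array 8 to 2685 without knockout array 2, the higher ones from 238 without knockout array 3 to 2184 without knockout array 2, and the lower ones from 31 without control array 8 to 501 without knockout array 2. Of the list members, 176 were higher and 11 lower, against 295 and 33 at an adjusted p below 0.05. With 1 array left out these ran from 91 without knockout array 3 to 226 without knockout array 2, and from 2 without knockout array 1 to 16 without knockout array 2. None of the 143 picked genes changed sign in any setting run, but they were picked as changed, and such genes would rarely do so. Of the 38 genes given with values that did not pass the test, the average of a gene's probe sets turned the sign of Kif2c (0.99 against -0.23), Anxa1 (1.17 against -0.27), Top2a (0.90 against -0.32), Dcn (0.63 against -0.28) and Gli3 (0.51 against -0.15), which passed the test then, and of Rgs5 (-0.05), Cacna2d1 (-0.34), Kcnq5 (-0.37), Meg3 (-0.20) and Rora (-0.30), which did not, and array weights that of Gfap (-0.09). With 1 array left out and no call, Neurod1 ran from -0.05 to 0.25, Tubb3 from -0.06 to 0.19, Gfap from -0.25 to 0.44, Gria2 from -0.24 to 0.09, Scn8a from -0.24 to 0.01 and Rora from -0.01 to 0.07. For the culture difference against that at P7, 2666 probe sets (2209 above, 457 below) became 4082 in 1 fit over all 6 groups, with 882 below, and 4864 (3638 above, 1226 below) with the labelled sex. With 1 array left out they ran from 1612 without knockout array 3 to 5255 without knockout array 2, those above from 1256 without knockout array 3 to 3965 without knockout array 2, and those below from 239 without control array 2 of P7 to 1290 without knockout array 2. No paired analysis was possible within the cultures because the genotypes share no replicate number there. P7 arrays share the numbers 1 to 3 across genotypes, but their deviations correlated at r = 0.01, 0.05 and 0.17, so the numbers did not pair them, and with the replicate block 861 probe sets differed (725 above, 136 below). The number of arrays and the tied, median-centred values limit what these counts can resolve.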
